A study of Populus tremula x Populus alba with 10 samples.

Results

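PtXaAlbH.10G108800, called the anchor here, was detected in 1153 of 16950 stem nuclei of hybrid poplar, and the 100 genes described below were those most enriched in the same nuclei, of 31823 genes measured. No annotation was at hand to name these IDs, and neither the roles of the genes nor the kind of nucleus is stated. A nucleus was called anchor-positive when it held at least 1 unique molecular identifier (UMI, the tag that counts 1 RNA molecule) of the anchor, among barcodes with at least 200 genes. The enrichment of a gene was the log2 ratio of its CPM (counts scaled to the same library total) in anchor-positive nuclei to its CPM in the other nuclei, with 50 CPM added to each. UMIs were pooled per treatment and the lower ratio of both treatments was kept. Of the genes other than the anchor, 10728 had at least 30 UMIs in anchor-positive nuclei, and 2103 of these had a higher ratio for this anchor than for each of 6 other anchor genes. The 100 highest of these are the members, which were thus selected on measured UMI counts, with the anchor itself left out of the ranking.

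Drought plants had their irrigation stopped until the soil held 15% of its field capacity (the water a soil retains after draining), and were then kept at that level by small daily additions of water, in a treatment of 14 days. Control plants were held near field capacity (0.46 m3/m3). All were wild-type plants of 1 clone, Populus tremula x alba INRA 717 1B4, grown in pots for 6 weeks before treatment. RNA of sorted nuclei from internode 15 was measured in 2 drought and 2 control libraries, each from 1 plant, and RNA of whole stem in 3 drought and 3 control libraries (bulk). The labels name no plant measured in both assays and do not say how many plants entered a bulk library.

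A poplar stem joins several tissues: a dividing layer, the vascular cambium, adds wood cells on its inner side and phloem cells on its outer side, with parenchyma, rays and bark tissues around them. In single nuclei, genes used by the same kind of cell appear in the same barcodes, so a set of genes detected together describes a kind of nucleus even where none of the genes has a name. Because a nucleus yields few molecules, a gene in use is often missed, and RNA set free during isolation can place single molecules of a gene in nuclei that do not use it.

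The drought nuclei libraries held 1930997 and 1994615 gene UMIs, against 4346198 and 3633900 in the controls, and 3172 and 3739 drought nuclei had at least 200 genes, against 4342 and 5697 control nuclei. Any pair of these libraries shared between 18 and 56 barcodes. The bulk libraries held between 47900128 and 57594846 counts. Bulk drought library 2 stood apart: a chi-square of counts over genes gave 131 and 158 per degree of freedom against drought libraries 1 and 3, which gave 10.1 against each other. Doublets were not removed. Nothing in the labels says whether other growth or preparation steps were shared between plants.

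The members' ratios, which chose them and are given as a description, ran from 1.76 to 3.63 with a median of 2.16 on the log2 scale, and 68 members were above 2. PtXaAlbH.01G310400 had the highest ratio: 3.64 and 4.40 in drought libraries 1 and 2, against 3.84 and 3.25 in control libraries 1 and 2. It ranked first in both drought libraries and in control library 1, and PtXaAlbH.08G094400 ranked first in control library 2. Taken library by library, every member was above 1 in all 4 libraries, where the lowest ratio was 1.40 and 1.57 in the drought and 1.81 and 1.39 in the control libraries. Drought library 2 gave the highest of the 4 ratios for 73 members. The next 7 by rank, PtXaAlbH.06G048200, PtXaAlbH.05G045500, PtXaAlbH.01G233300, PtXaAlbH.08G094400, PtXaAlbH.11G049100, PtXaAlbH.03G138800 and PtXaAlbH.04G049200, had ratios from 3.39 to 2.97. At the limit, PtXaAlbH.09G080900 and PtXaAlbH.08G155600 were just inside, both at 1.76, and PtXaAlbH.06G029400 and PtXaAlbH.09G062500 just outside, both at 1.75.

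The members' UMIs over all deposited barcodes ran from 298 to 19462 with a median of 1577.5. PtXaAlbH.06G048200 had the most, followed by PtXaAlbH.02G042800 with 8711 and PtXaAlbH.10G049500 with 8605. Of the UMIs in nuclei with at least 200 genes, anchor-positive nuclei held 12.4% over all genes but between 35.8% and 75.3% of a member's UMIs, with a median of 55.3%. PtXaAlbH.08G094400 had the largest share in them, whereas PtXaAlbH.06G063500 had the smallest. The median member had a UMI in 23.1% and 25.3% of anchor-positive drought nuclei, against 2.11% and 1.54% of the other drought nuclei. In the controls it had one in 34.4% and 28.8% of anchor-positive nuclei, against 4.83% and 3.98% of the others. Anchor-positive nuclei were also deeper, with median UMIs of 691.5 and 541 against 424 and 352 in drought, and of 1125 and 760 against 714 and 501 in the controls. These shares of nuclei therefore compare nuclei of unequal depth, whereas CPM is relative to the total of each group of nuclei.

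The 6 other anchors had ratios below 0 in these nuclei, taking the lower of both treatments, from -1.17 for PtXaAlbH.12G066100 to -0.53 for PtXaAlbH.03G005800, whose drought ratio was 0.10. For each other anchor in turn, the median member ratio was below 0, from -0.73 to -0.09, and it was nearest to 0 for PtXaAlbH.07G032900. At its nearest other anchor, a member had a median ratio of 0.04. Only 5 members reached 0.5 at any of these anchors, namely PtXaAlbH.01G024400, PtXaAlbH.16G005300, PtXaAlbH.08G139300, PtXaAlbH.06G063500 and PtXaAlbH.09G080900, which were picked out after their values were seen. PtXaAlbH.01G024400 was the extreme, at 1.37 for PtXaAlbH.12G066100 against 2.22 for this anchor. Since the rule compared the same anchors, these values too are a description.

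Anchor-positive nuclei had 2 peaks in how much of their RNA came from the members. Every nucleus with at least 300 UMIs was thinned to 300, and the others were left out. Depth was thus equal for member UMIs, whereas anchor UMIs were counted before thinning. The median anchor-positive nucleus then held 24 and 31 member UMIs in the drought libraries and 25 and 27 in the controls. The median of the other nuclei was 1 and 1 in drought and 2 and 2 in the controls. A content of 20 or more member UMIs, a limit set after the distribution was seen, was reached by 54.7% and 77.9% of anchor-positive drought nuclei, against 53.1% and 57.0% of anchor-positive control nuclei. Between 15 and 25 UMIs lay 10 and 9 of these drought nuclei and 24 and 25 of these control nuclei. The members were selected on these same nuclei, so the gap between anchor-positive and other nuclei follows from the rule and is a description only.

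**Figure D1:**
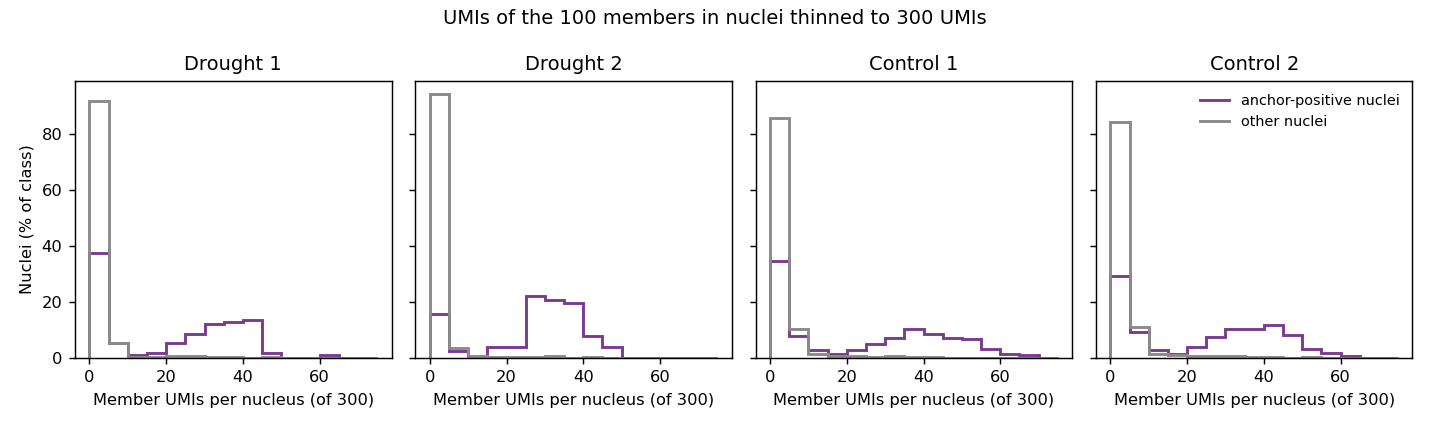
Distribution of UMIs from the 100 members per nucleus after thinning to 300 UMIs, in bins of 5, for each nuclei library; the vertical axis is the percentage of anchor-positive nuclei (purple) or of other nuclei (grey). Anchor-positive nuclei have 1 peak beside the other nuclei near 0 and a second peak above 20, and few nuclei lie between.

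The number of anchor UMIs went with that division. Among nuclei with at least 2 anchor UMIs, 84.9% and 97.1% reached 20 member UMIs in drought and 90.5% and 91.0% in the controls. Among nuclei with a single anchor UMI, 29.7% and 61.9% did so in drought and 19.9% and 32.9% in the controls. A single anchor UMI thus often stood in a nucleus with few member UMIs. Anchor UMIs were counted before thinning, at unequal depth. Nuclei with at least 2 anchor UMIs then had median UMIs of 1011 and 704 in drought and 1328 and 996 in the controls. Those with 1 anchor UMI had 662.5 and 510.5 in drought and 957 and 693 in the controls. Conversely, of the nuclei with 20 or more member UMIs, 58.2% and 64.5% held the anchor in drought and 77.7% and 68.5% in the controls. Before thinning these nuclei had median UMIs of 614.5 and 541 in drought and 1077 and 723 in the controls, so the treatments differed in depth too. The anchor was found in 2.23% and 0.703% of the drought nuclei with fewer member UMIs, against 5.62% and 3.99% of such control nuclei.

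A smaller share of nuclei was anchor-positive under drought. It was 4.22% (95% exact interval 3.55% to 4.98%) and 2.43% (1.96% to 2.98%) in the drought libraries, against 10.9% (9.98% to 11.9%) and 7.99% (7.30% to 8.72%) in the controls. The means were 3.33% ± 1.27 and 9.44% ± 2.06 (SD, n = 2 each), and both drought libraries lay below both controls. An exact permutation test (two-sided) gave p = 0.33. That is the smallest value 2 against 2 libraries allow, so the difference could not pass 0.05. The intervals cover counting error only. Nuclei were also thinned to 300 UMIs, which left out 686 and 1227 drought nuclei and 71 and 753 control nuclei with fewer. The share was then 2.33% and 2.03% in drought, against 5.24% and 4.89% in the controls. The difference was -2.89 percentage points, against -6.11 without thinning, over unequal sets of nuclei. Nuclei that held UMIs of any of the 6 other anchors were anchor-positive almost as often, in 3.28% and 1.87% of drought nuclei, with median UMIs of 521 and 432.5. In the controls they were so in 10.6% and 7.45%, with median UMIs of 907 and 618. The share is therefore given as that of nuclei with an anchor UMI, and its difference is not read as a difference in the number of nuclei of 1 kind.

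Member content gave a second measure, which is not independent of the first. The members were chosen on these nuclei, and the limit of 20 was set after the distribution was seen. As given above, 58.2% and 64.5% of the nuclei reaching it held the anchor in drought and 77.7% and 68.5% in the controls. At 300 UMIs per nucleus, 4.42% (95% exact interval 3.65% to 5.31%) and 3.70% (3.00% to 4.52%) of drought nuclei held at least 20 member UMIs, against 7.56% (6.79% to 8.40%) and 7.18% (6.48% to 7.94%) of control nuclei. Both drought libraries lay below both controls, and p was 0.33 in an exact permutation test, again the smallest possible. No conclusion is drawn from that test. Nuclei with a UMI of any of the 6 other anchors reached 20 member UMIs in 1.76% and 1.07% of cases in drought and 4.60% and 3.46% in the controls, a description only, since the rule set the members against these anchors. This class is a range of a score and not a type, and 32 and 25 drought nuclei and 67 and 99 control nuclei lay between 15 and 25 UMIs. Thinning left out 686 and 1227 drought nuclei and 71 and 753 control nuclei with fewer than 300 UMIs. Of the deposited drought barcodes 75.5% and 61.6% had at least 200 genes, against 97.8% and 100.0% of the control barcodes, and the part of barcode selection in these shares was not tested.

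The members' summed share of all counts was lower under drought in both assays. In bulk RNA it was 0.901%, 0.992% and 0.861% in drought libraries 1 to 3, against 2.21%, 1.74% and 2.12% in control libraries 1 to 3. In whole nuclei libraries it was 1.16% and 0.968% in drought, against 2.32% and 1.99% in the controls. No drought library reached a control library in either assay. Within anchor-positive nuclei it was 6.25% and 9.11% in drought, against 8.69% and 7.53% in the controls, and there the treatments overlapped. In nuclei without an anchor UMI it was 0.806% and 0.697% in drought, against 1.02% and 1.15% in the controls.

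**Figure D2:**
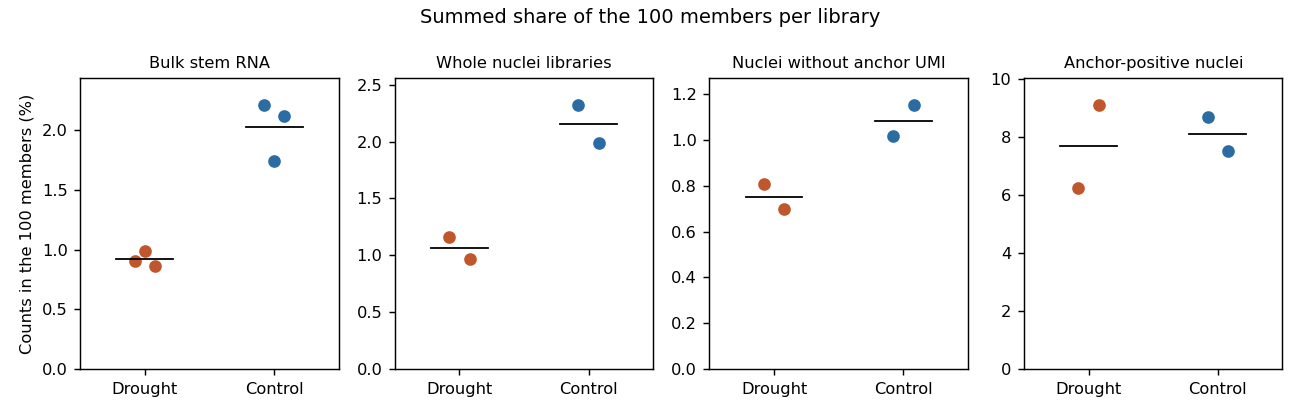
Share of all gene counts that belonged to the 100 members in each library (points) and the treatment mean (line), in bulk stem RNA, whole nuclei libraries, nuclei without an anchor UMI and anchor-positive nuclei, each panel on its own axis from 0. Drought libraries lie below the controls in every panel but that of anchor-positive nuclei, where they lie on both sides of them.

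Which members changed in bulk stem RNA under drought was tested next, in libraries that had no part in choosing them. All 100 passed the filter on low counts. At a false discovery rate (FDR) below 0.05, 84 fell and 4 rose (quasi-likelihood test of edgeR, p adjusted by Benjamini-Hochberg over 26448 genes, 3 against 3). Of all genes tested 54.2% were called, 27.1% lower and 27.1% higher. The median log2 fold change was -1.06 over the members and 0.01 over all genes. The 25th and 75th percentiles were -1.49 and -0.54 over the members and -0.54 and 0.53 over all genes. Without bulk drought library 2, the library that stood apart, 85 members fell and 6 rose. In that fit 33.6% of all genes tested were called lower and 32.8% higher. In bulk RNA, fewer cells of a kind and less RNA per cell cannot be told apart.

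The steepest falls in bulk were those of PtXaAlbH.08G019300 and PtXaAlbH.03G075300. PtXaAlbH.08G019300 had 45.9, 42.3 and 49.7 CPM in drought and 238, 176 and 228 CPM in control libraries. Its log2 fold change was -2.22 (edgeR, SE 0.14, adjusted p 0.000165). PtXaAlbH.03G075300 had 28.2, 27.0 and 24.8 CPM in drought and 129, 109 and 130 CPM in control libraries. Its fold change was nearly as large at -2.20 (edgeR, SE 0.11, adjusted p 0.000105). In both genes the drought libraries lay close together and far below every control.

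The anchor also fell in bulk, by less than most members. It had 54.1, 53.1 and 47.1 CPM in drought and 92.7, 70.3 and 89.5 CPM in control libraries, a log2 fold change of -0.71 (edgeR, SE 0.13, adjusted p 0.00408). All 8 members of highest ratio fell in bulk, between -1.67 for PtXaAlbH.05G045500 and -0.49 for PtXaAlbH.01G310400. PtXaAlbH.01G310400 had 117, 85.9 and 116 CPM in drought and 162, 127 and 158 CPM in control libraries (adjusted p 0.0352 with edgeR). Its call did not pass without drought library 1 or 3 or without control library 1 or 3 (adjusted p 0.0524 to 0.115). PtXaAlbH.03G138800, at -0.52, was not called without control library 1 or 3 (adjusted p 0.0792 and 0.0704 with edgeR). PtXaAlbH.04G049200, 8th of the members by ratio, had 408, 424 and 370 CPM in drought and 957, 762 and 933 CPM in control libraries.

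The 4 members that rose in bulk had ratios between 1.78 and 2.28. PtXaAlbH.06G063500 rose most, with 425, 343 and 426 CPM in drought and 235, 201 and 216 CPM in control libraries (edgeR log2 fold change 0.87, SE 0.12, adjusted p 0.00166). Every drought library was above every control, and the call held without each library in turn. It was also the member with the smallest share of its UMIs in anchor-positive nuclei and 1 of the 5 that reached 0.5 at another anchor. PtXaAlbH.15G111700 had 137, 91.5 and 156 CPM in drought and 82.1, 62.3 and 83.1 CPM in control libraries (edgeR log2 fold change 0.76, SE 0.21, adjusted p 0.0222). Its call did not pass without drought library 1 or 3 or without any 1 of the controls (adjusted p 0.0553 to 0.0837).

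In whole nuclei libraries, with UMIs summed over all deposited barcodes, 84 members fell and 0 rose at FDR below 0.05 (edgeR over 20768 genes, 2 against 2). Of all genes tested 8.84% were called, 5.21% lower and 3.63% higher. At an unadjusted p below 0.05, 92 members passed, as did 5118 of all 20768 genes tested. DESeq2 called 81 members lower and 0 higher, where 3.94% and 2.67% of all genes tested were. All 100 were tested and all 100 had a log2 fold change below 0, from -2.57 to -0.28. Their median was -1.12, against 0.01 over all genes. The rule used the same UMIs, but set anchor-positive against other nuclei within a treatment and not drought against control. Anchor-positive nuclei held 7.02% and 3.82% of UMIs in drought nuclei with at least 200 genes, against 17.1% and 13.1% in the controls. The members were chosen for these nuclei, so their falls are not independent of each other. The part of that difference in the falls was not tested. Each fit without 1 library left a single library in its treatment, so its median is given here. The member median was -1.05 and -1.28 without drought libraries 2 and 1, and -1.01 and -1.21 without control libraries 1 and 2. Over all genes it was -0.02 without either drought library and 0.02 without either control library. Fewer members were called without drought library 1 or 2 or control library 1.

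PtXaAlbH.03G075300 and PtXaAlbH.08G019300 were again the steepest. PtXaAlbH.03G075300 had 37 and 24 UMIs over all barcodes of the drought libraries and 486 and 250 UMIs over all barcodes of the control libraries. These counts are not scaled to the library totals, which were 1930997 and 1994615 in drought and 4346198 and 3633900 in the controls. The scaled log2 fold change of PtXaAlbH.03G075300 was -2.57 (edgeR, SE 0.32, adjusted p 0.00306). PtXaAlbH.08G019300 had 21.4 and 20.9 CPM in drought and 116 and 104 CPM in the controls (edgeR log2 fold change -2.38, SE 0.22, adjusted p 0.000837). The anchor had 140 and 105 CPM in drought and 319 and 260 CPM in the controls, a log2 fold change of -1.24 (edgeR, SE 0.21, adjusted p 0.00961). PtXaAlbH.06G048200, the most abundant member in nuclei, had 958 and 969 CPM in drought and 2157 and 1777 CPM in the controls. Its log2 fold change of -1.03 (adjusted p 0.0146 with edgeR) did not pass without drought library 1 or 2 (adjusted p 0.0555 and 0.0575). Among the other 7 members of highest ratio, all fell. The calls of PtXaAlbH.01G310400, PtXaAlbH.11G049100 and PtXaAlbH.03G138800 did not pass without drought library 2 (adjusted p 0.0617, 0.0728 and 0.0776). That of PtXaAlbH.01G233300 did not pass without drought library 1 or 2 or control library 1 (adjusted p 0.0842 to 0.103).

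Of the other abundant members, PtXaAlbH.02G042800 had 645 and 426 CPM in drought and 1023 and 613 CPM in control nuclei libraries, where the treatments overlapped. It was not called (adjusted p 0.207 with edgeR), although without control library 2 it was (adjusted p 0.0021). In bulk it fell, at -0.44 (adjusted p 0.0181 with edgeR), but not without control library 1 or 3 or drought library 3 (adjusted p 0.0542 to 0.0639). PtXaAlbH.10G049500 had 506 and 268 CPM in drought and 976 and 803 CPM in control nuclei libraries, a log2 fold change of -1.20 (edgeR, SE 0.28, adjusted p 0.0281). It was not called without drought library 2 (adjusted p 0.105), nor in bulk (log2 fold change -0.26, adjusted p 0.159). In bulk it was called without control library 2 (adjusted p 0.0405).

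Within anchor-positive nuclei, no member passed the test at this depth. UMIs of these nuclei were summed per library, 121790 and 61385 in drought and 741269 and 477744 in the controls. Of the 100 members, all tested, 0 were called (edgeR over 8147 genes, 2 against 2), where 0.209% of all genes tested were, 0.135% lower and 0.0736% higher. At an unadjusted p below 0.05, 8 members passed, as did 823 of all 8147 genes tested, and DESeq2 called 0 members. The median log2 fold change was -0.21 over the members and -0.01 over all genes, with 68 members below 0 and 32 above. The members' standard errors had a median of 0.31, against 0.22 in whole nuclei libraries, and 0 calls do not show that levels were equal. The median was -0.49 without drought library 2 and 0.02 without drought library 1. With at least 2 anchor UMIs required, 3 members were called lower, where 0.959% of all genes tested were, and the member median was -0.38.

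**Figure D3:**
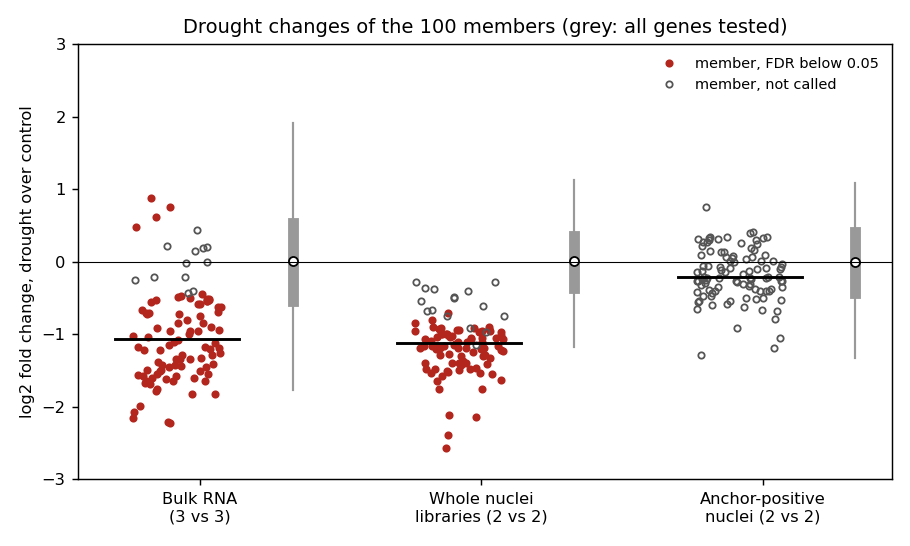
Log2 fold change of each member (points; filled red where FDR was below 0.05) under drought in bulk RNA, whole nuclei libraries and anchor-positive nuclei, with the median as a black line; grey bars beside them give the 25th to 75th and 5th to 95th percentiles of all genes tested and the open circle their median. The member median is -1.06 in bulk, -1.12 in whole nuclei libraries and -0.21 in anchor-positive nuclei.

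Genes named above are given here beside their whole-library values. PtXaAlbH.01G310400 had 1607 and 2739 CPM in anchor-positive drought nuclei and 2482 and 1678 CPM in anchor-positive control nuclei, a log2 fold change of 0.04 (SE 0.36). PtXaAlbH.06G048200 had 5579 and 11706 CPM in drought and 9243 and 7819 CPM in control (log2 fold change 0.01, SE 0.47). For both genes the drought libraries lay on either side of the controls. PtXaAlbH.03G075300 and PtXaAlbH.08G019300 had the lowest fold changes here as well, at -1.29 (edgeR, SE 0.39, adjusted p 0.243) and -1.19 (edgeR, SE 0.34, adjusted p 0.225). PtXaAlbH.03G075300 had 144 and 163 CPM in drought and 479 and 258 CPM in control. PtXaAlbH.08G019300 had 144 and 277 CPM in drought and 458 and 435 CPM in control. The treatments did not overlap for either gene, but neither was called. The share of anchor-positive nuclei with 20 or more member UMIs, given above, was highest in drought library 2, and its part in these values was not tested. The anchor's own level in these nuclei is set by the rule that chose them.

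With the libraries limited to barcodes with at least 200 genes, 78 members were called lower and 0 higher (edgeR over 20618 genes). Of all genes tested there, 4.14% were called lower and 2.88% higher, and the member median was -1.09. When anchor-positive nuclei were left out of these barcodes, 17 members were called lower and 0 higher (edgeR over 20272 genes). In that fit 3.33% of all genes tested were called lower and 2.34% higher. The median log2 fold change was -0.61 over the members and 0.0020 over all genes. The nuclei with 20 or more member UMIs and no anchor UMI remain in that comparison. These sums do not separate fewer such nuclei from lower levels within them. The whole-library, anchor-positive and remaining sums share their libraries and are set side by side only.

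**Figure D4:**
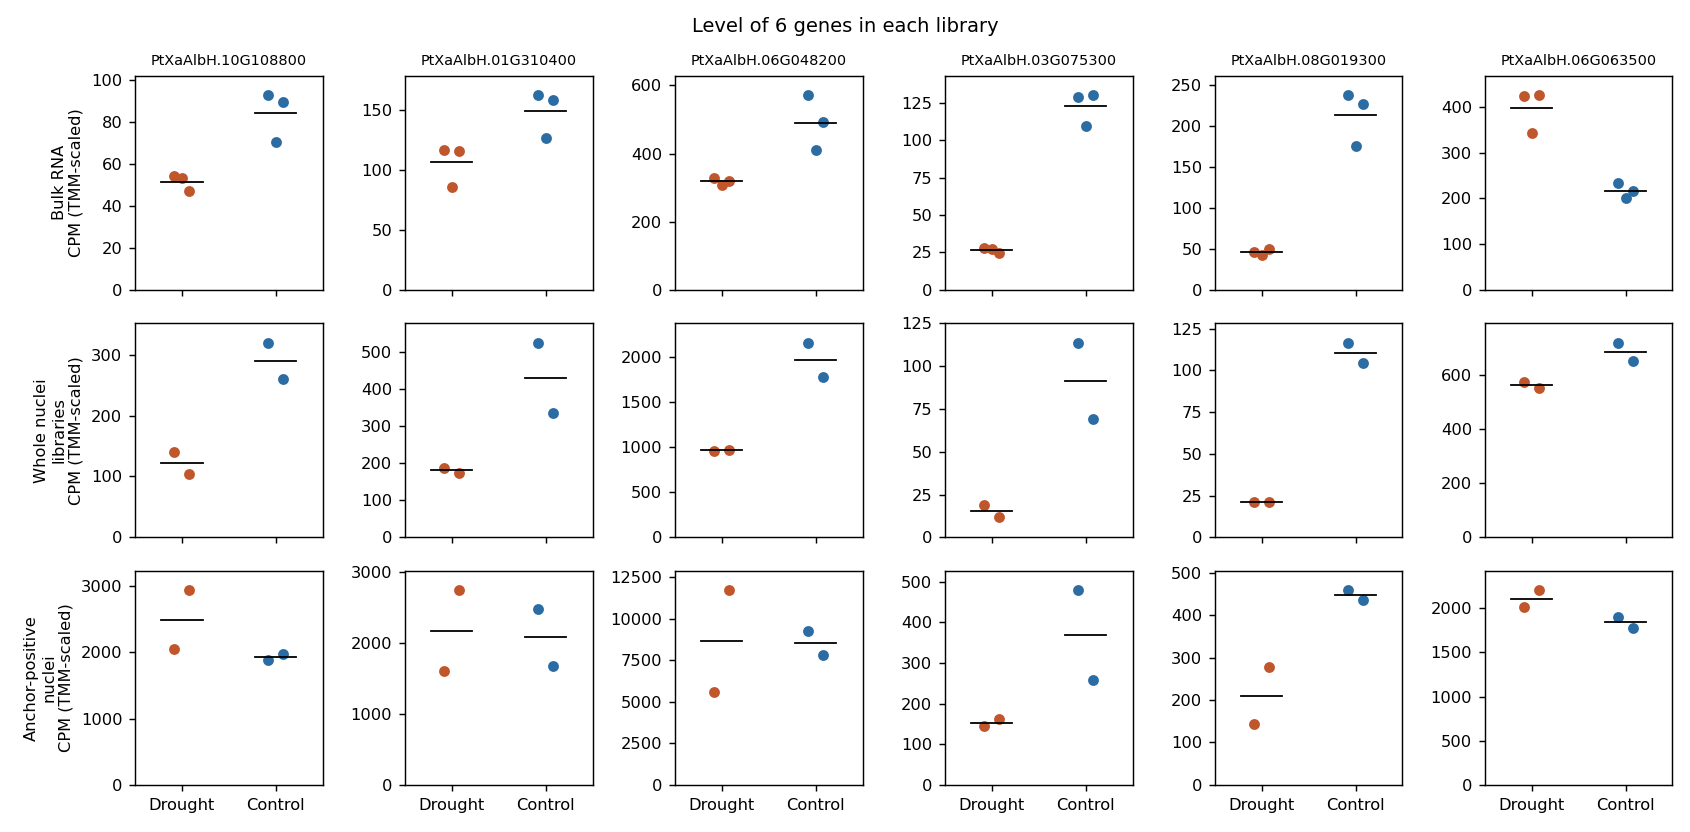
CPM on TMM-scaled library sizes of the anchor, 2 members of high ratio, the 2 with the steepest fall and the one with the largest rise in bulk, in each library (points) with the treatment mean (line), each panel on its own axis from 0. In bulk and whole nuclei libraries the first 5 genes are lower in every drought library, and PtXaAlbH.06G063500 is higher in bulk drought libraries but lower in whole nuclei libraries under drought, where it was not called.

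The assays share no library, and most members moved alike in both. In both assays 76 of the 100 members fell, as did 4.06% of the 20588 genes tested in both. A further 8 fell in bulk and were not called in nuclei, and 7 fell in nuclei and were not called in bulk. Another 3 rose in bulk and were not called in nuclei, and 5 were called in neither. Shares of all genes in these splits were not computed, so the counts are not read as a trait of the members. The remaining member, PtXaAlbH.02G042700, was called in opposite directions. It had 6.43, 6.45 and 6.27 CPM in drought and 5.30, 3.78 and 4.69 CPM in control bulk libraries, a log2 fold change of 0.48 (edgeR, SE 0.16, adjusted p 0.0431). The rise in bulk was small and did not pass without drought library 1 or 3 or control library 2 or 3 (adjusted p 0.0886 to 0.116), nor without scaling beyond library size (0.111). In nuclei it had 71.7 and 57.8 CPM in drought and 160 and 120 CPM in the controls, a log2 fold change of -1.11 (edgeR, SE 0.22, adjusted p 0.0152), which did not pass without drought library 2 (0.0789). Its ID directly precedes that of PtXaAlbH.02G042800, and how reads of neighbouring or near-identical genes were assigned is not given in the sources used here.

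**Figure D5:**
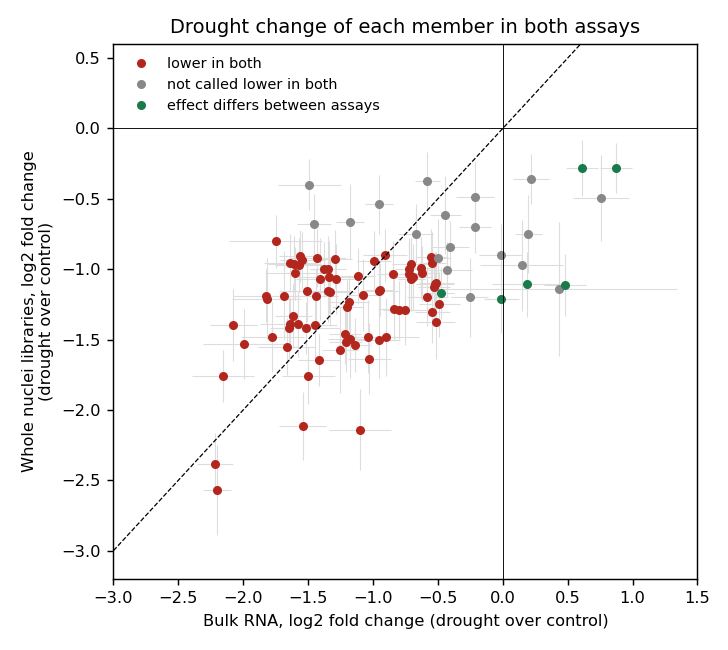
Log2 fold change under drought of each member in bulk RNA (horizontal) and whole nuclei libraries (vertical), with standard errors as grey lines and equality dashed; red points fell in both assays, green points had a drought effect that differed between assays, 1 of them lower in both, and grey points are the other members. Members lie below 0 on the vertical axis throughout, and 9 lie above 0 on the horizontal axis.

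Whether the drought effect differed between assays was tested in 1 model of all 10 libraries. It did for 6 members, all more negative in nuclei (edgeR over 27746 genes), or 6 of 100 where 7.21% of all genes were called, 4.87% more negative and 2.34% more positive in nuclei. The median difference, nuclei minus bulk, was -0.33 over the members and -0.09 over all genes. The count moved with single bulk libraries, and so did the share of all genes called. Without bulk drought library 2 the count was 26, with 8 more positive in nuclei, and 22.8% of all genes were called. It was 2 without bulk control library 1, where 2.55% of all genes were called. Without bulk drought library 1 or 3 or bulk control library 2 or 3 it was 3, where 2.26% to 3.27% were. A fit without 1 nuclei library left a single library in its treatment, so its median is given. The median difference over the members was -0.47 and -0.13 without nuclei drought libraries 1 and 2. It was -0.16 and -0.40 without nuclei control libraries 1 and 2. Over all genes it was -0.14, -0.15, -0.05 and -0.08 in these fits. Without scaling beyond library size 4 members were called, 1 of them more positive in nuclei, and 8.26% of all genes were called. The median difference was then -0.08 over the members and 0.15 over all genes. With scaling and all 10 libraries, the share of members called was close to that of all genes.

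By their IDs the members were spread over the genome's numbering. The 2-digit number after the prefix took 18 of its 19 values among the members, with 14 members at 01, 12 at 08 and 11 at 06. Over all genes these numbers held 11.9%, 5.79% and 7.38%. In 4 cases 2 members stood within 10 listed genes of each other, and PtXaAlbH.02G042700 and PtXaAlbH.02G042800 were the one pair listed next to each other. Whether such pairs share reads was not tested, so their values may be less certain.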

How the data were processed

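The authors deposited raw read counts per gene for the bulk libraries, and raw UMI counts per feature and barcode for the nuclei, per the file headers and the values. HISAT2 is named in the submitters' processing notes. Not given in the sources used here are the counter, the genome build, the strand setting and the barcode rule. Per the labels' protocols, bulk libraries were made with the TruSeq Stranded mRNA kit and nuclei with the Singleron GEXSCOPE chip, with 80000 nuclei sorted and 10000 targeted per library. The 25 ribosomal and transfer RNA features were left out. Each library was 1 replicate, grouped by its label. Where nothing says that bulk libraries came from separate plants, p-values measure only the spread between these samples.

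Drought was compared with control by edgeR 4.0.16 (R 4.3.3), with TMM scaling, the filterByExpr filter, the quasi-likelihood F test and Benjamini-Hochberg adjustment over all genes tested, and an FDR of 0.05. Each SE was taken as the absolute log2 fold change over the root of its F statistic. CPM beside fold changes are on TMM-scaled library sizes. Nuclei were thinned by drawing 300 UMIs without replacement, and those with fewer were left out. Alternatives were DESeq2 1.42.0, other scaling and filters, thinned counts, a replicate block and each library left out. Same-numbered drought and control libraries did not deviate together in bulk (correlations of -0.0093 to 0.0303). In nuclei the correlation was -0.10 for same-numbered and 0.10 for crossed libraries. With 2 libraries per treatment these are 1 value with opposite signs, so they cannot decide the pairing. The block was kept as an alternative in both assays.

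The members and comparisons were chosen with earlier results of these data known. Genes named are the anchor, the 8 members of highest ratio, those at the limit of the ranking, the 2 called members with the largest rise and the 2 with the largest fall per comparison among those whose libraries do not overlap, the 3 with most UMIs and those called in opposite directions. The genes given as exceptions or flagged were named after their values were seen.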

Additional observations from a re-analysis of the deposited data

Results flagged for a closer look

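Drought changed 6 members differently in nuclei than in bulk RNA, as tested directly by the assay-by-treatment term in 1 edgeR model of the 10 libraries (p adjusted over all genes). That share was close to the 7.21% called over all genes. The count was 2 with a replicate block, where 1.56% of all genes were called. It was also 2 without bulk control library 1, where 2.55% were. The difference, nuclei minus bulk on the log2 scale, was -1.68 for PtXaAlbH.02G042700 (adjusted p 0.00854), -1.39 for PtXaAlbH.03G077100 (0.0485), -1.29 for PtXaAlbH.05G103000 (0.0191), -1.25 for PtXaAlbH.06G063500 (0.0107), -0.98 for PtXaAlbH.02G062000 (0.0266) and -0.78 for PtXaAlbH.09G006100 (0.0308), all by edgeR. PtXaAlbH.03G077100 and PtXaAlbH.05G103000 fell in nuclei, at -1.11 and -1.21, and had 0.19 and -0.01 in bulk, where neither was called. PtXaAlbH.06G063500 and PtXaAlbH.02G062000 rose in bulk, at 0.87 and 0.61, and had -0.28 in nuclei each, where neither was called. PtXaAlbH.09G006100 fell in both, at -1.17 in nuclei and -0.47 in bulk. The assays differ in stem part and RNA pool at once, and the labels name no plant measured in both, so these differences cannot be told apart.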

How the results depend on the processing

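In bulk, between 78 and 91 members were called with each library left out in turn, where 39.2% to 66.4% of all genes were. The count was 88 or 89 under the other alternatives, where 47.5% to 57.4% of all genes were called. It was 88 as reported, and the replicate block gave 88. In whole nuclei libraries the count was 38 to 89 with a library left out, 17 without anchor-positive nuclei and 78 to 89 under the other alternatives. The replicate block gave 84, where 8.05% of all genes were called. A crossed replicate block, added after the pairing check because the correlation was under -0.1, gave 89, where 13.4% were. In anchor-positive nuclei 3 members were called without a filter on low counts and 3 with at least 2 anchor UMIs required. Of all genes 0.548% and 2.08% were called in these fits. The replicate block gave 0 members. Their median reversed to 0.022 without drought replicate 1 and was -0.49 without drought replicate 2. The number whose effect differed between assays was 2 to 26 with a bulk library left out, where 2.26% to 22.8% of all genes were called. It was 2 with the replicate block, where 1.56% were. The replicate block left PtXaAlbH.02G042700 uncalled in bulk (adjusted p 0.0707 with edgeR). The difference in the share of anchor-positive nuclei stayed below 0 throughout, from -7.56 to -2.74 percentage points against -6.11. Other settings for the ranking kept 87 to 99 of the 100 members. Single fold changes reversed for PtXaAlbH.15G111700 in nuclei without control replicate 1 (0.11, against -0.93 without control replicate 2) and, without anchor-positive nuclei, for PtXaAlbH.15G111700 (0.31), PtXaAlbH.02G042800 (0.052), PtXaAlbH.08G155600 (0.018) and PtXaAlbH.09G080900 (0.032). The causes were not tested, beyond the smaller number of samples or nuclei in these fits. Leaving out anchor-positive nuclei, the crossed block and the limit of 20 member UMIs were chosen after seeing the data.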
